A study of Arabidopsis thaliana with 11 samples.

Results

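SEPALLATA3 (SEP3) is a MADS-domain transcription factor of the flower that joins other MADS-domain proteins into larger complexes, and its binding was mapped by chromatin immunoprecipitation followed by sequencing (ChIP-seq). The binding sites (BSs) described here are those called for SEP3 at day 8 of synchronised flower development that overlapped, by 1 bp or more, no SEP3 BS of day 2 and none of day 4. The members were thus chosen by the peak calls of the 3 SEP3 lists, and the day 8 calls carry the measured values. There were 1965 such sites among the 7815 SEP3 BSs of day 8 (25.1% of that list, 95% Wilson interval 24.2 to 26.1%) and among the 18963 BSs of all 6 lists in the series. They are called day 8 only sites below. The other 5850 BSs of day 8 overlapped a SEP3 BS of day 2 or day 4 and are called earlier sites. Of these, 4491 were also called at day 4 alone, 1353 at days 2 and 4, and 6 at day 2 alone.

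All samples were inflorescences of Arabidopsis thaliana (Landsberg) with the genotype pAP1::AP1-GR ap1 cal. These plants lack functional AP1 and CAULIFLOWER and carry a fusion of APETALA1 (AP1) with the steroid-binding part of the glucocorticoid receptor (AP1-GR), expressed from the AP1 promoter. Treatment with dexamethasone (DEX) lets the fusion protein enter the nucleus, and floral meristems then form together. SEP3 samples of day 8, day 4 and day 2 were precipitated with a peptide antibody against SEP3, AP1-GR samples of the same days with an antibody against the receptor part, and mock samples with pre-immune serum. Every group therefore carries AP1-GR and was treated with DEX. The title and the tissue label of both SEP3 day 2 samples differ, the title giving day 2 and the label 4 days. The title was followed, and without that list the number of day 8 only sites was 1971. Titles give 2 biological replicates for each factor and day, while the design text gives 1 for day 2 and for the mock. Each list combines its replicates, which leaves no replicate error to report, and sites are not replicates of a condition. Intervals and p-values describe these lists and cover counting error only. A site missing from an earlier list fell short of the calling limit there and is not shown to be unbound.

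MADS-domain proteins bind as dimers to the CArG box, in which 6 bases, each A or T, stand between CC and GG. SEP3 takes part in specifying sepals, petals, stamens and carpels, and remains present while these organs differentiate. By day 8 of this system floral organs are differentiating, which is the stage at which the organs grow and form specialised surfaces, pollen sacs and ovules. Other elements counted at the summits were the GA-rich motif (8 bases that alternate between G and A), the G-box CACGTG bound by bHLH and bZIP proteins, TGACG bound by TGA factors, the auxin response elements TGTCTC and TGTCGG, and GGNCCC bound by TCP proteins, which control organ growth. All were sought on both strands within 50 bp of the summit, in a window of 101 bp.

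The 4 day 8 only sites of highest fold enrichment that held a CArG box outside exons are shown first because they carry the element that SEP3 is known to bind. Sequences are the plus strand of TAIR10 (RefSeq), 101 bp around the summit, with the CArG box in capitals. The site in an intron of SPPL2, a signal peptide peptidase-like protease (chr1:23620058-23620158, fold enrichment 4.51), had its box centred 3.5 bp from the summit. The site 2101 bp upstream of CUE1, a phosphoenolpyruvate translocator of the plastid (chr5:12586590-12586690, fold enrichment 3.66), had it at 8.5 bp. The site 57 bp past the end of DEG10, which encodes a mitochondrial protease (chr5:14598402-14598502, fold enrichment 3.52), had it at 16.5 bp, and the site 59 bp past the end of NUP155, a nuclear pore protein (chr1:5116414-5116514, fold enrichment 3.50), had it at 13.5 bp.
SPPL2: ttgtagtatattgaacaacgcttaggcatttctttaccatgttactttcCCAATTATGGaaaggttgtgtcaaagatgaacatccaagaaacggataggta
CUE1: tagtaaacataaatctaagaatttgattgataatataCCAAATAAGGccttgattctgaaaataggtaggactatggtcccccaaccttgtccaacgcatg
DEG10: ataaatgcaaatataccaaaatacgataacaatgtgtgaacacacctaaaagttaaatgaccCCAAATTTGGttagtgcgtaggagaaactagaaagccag
NUP155: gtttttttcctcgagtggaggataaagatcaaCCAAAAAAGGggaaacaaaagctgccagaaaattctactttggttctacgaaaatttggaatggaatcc

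Another set of windows shows the TCP element, which was more frequent at day 8 only sites than the CArG box. The site 153 bp upstream of BEH2, a close homologue of the brassinosteroid-response factors BES1 and BZR1 (chr4:17334458-17334558, fold enrichment 4.13), held a TCP element 8.5 bp from the summit and a G-box at 40.5 bp. The site in an intron of AT5G25210 (chr5:8724934-8725034, fold enrichment 4.06) held a TCP element at 19.5 bp. An intergenic site that ranks between these in fold enrichment (4.08) held a TCP element at 20.5 bp and is not printed. Capitals mark the TCP element.
BEH2: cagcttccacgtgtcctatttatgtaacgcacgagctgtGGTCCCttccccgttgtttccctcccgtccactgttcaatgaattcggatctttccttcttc
AT5G25210: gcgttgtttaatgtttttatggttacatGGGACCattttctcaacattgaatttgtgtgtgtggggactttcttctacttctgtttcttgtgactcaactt

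The day 8 only sites were mostly of low enrichment within the day 8 list. Fold enrichment, which the authors' peak caller gives as ChIP over control at the summit, ranged over 1.71 to 5.17 with a median of 2.58 at day 8 only sites, and over 1.69 to 8.92 with a median of 3.73 at earlier sites. The highest day 8 only site ranked 1316 among all day 8 BSs, and 67 day 8 only sites exceeded the median of the earlier sites. Median −log10 q was 10.5 at day 8 only sites and 27.1 at earlier sites, and median width was 257 bp and 409 bp in the same order. The calls that chose the members rest on these quantities, so they are given as a description without a test.

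**Figure D1:**
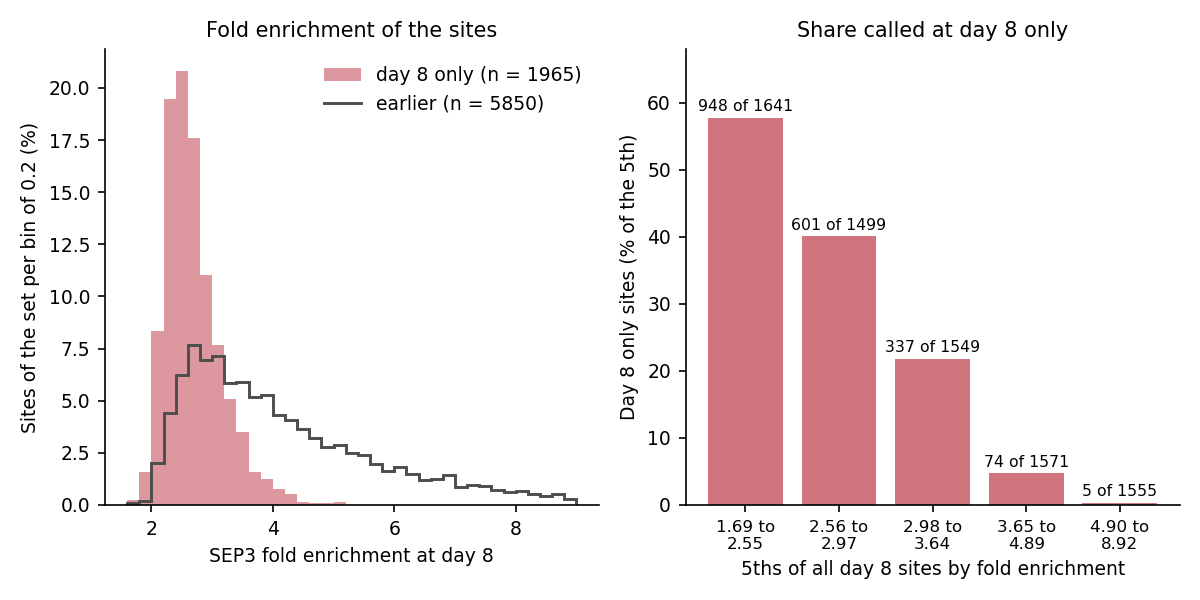
Left, distribution of SEP3 fold enrichment at day 8 (percent of sites per bin of 0.2) for the 1965 day 8 only sites (filled) and the 5850 earlier sites (line). Right, percent of sites called at day 8 only within 5ths of all day 8 BSs ordered by fold enrichment, with counts above the bars, from 948 in the lowest 5th to 5 in the highest.

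When all day 8 BSs were ordered by fold enrichment and divided into 5ths, day 8 only sites made up 57.8% of the lowest 5th (948 sites), 40.1% of the next (601), then 21.8% (337) and 4.71% (74), and 0.322% of the highest (5). A −log10 q of at least 10 was reached by 1083 day 8 only sites (55.1%) and by 5238 earlier sites (89.5%). In distance, few sites lay close to the limit of the rule, with 7 day 8 only sites under 50 bp from an earlier BS. The day 8 only sites nearest to an earlier BS lay 24 bp away (near AT1G15800), 31 bp (near AT1G25422), 32 bp (near JAR1), 34 bp (near EXPA10) and 39 bp (near AT1G09470). Just outside the rule, BSs near PORB, AT4G20310 and KCS10 overlapped an earlier BS by 6 bp, 34 bp and 51 bp. Membership depended more on how overlap and calls were defined. With a reciprocal overlap of 50% there were 2391 day 8 only sites. With −log10 q of at least 10 in all 3 lists there were 1937, against 1083 with that limit on day 8 alone.

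Many day 8 only sites lay in the neighbourhood of a BS of day 2 or 4. The median gap to the nearest such BS was 2591 bp (quartiles 791 and 8217 bp), and the longest was 384633 bp. The gap was under 500 bp for 315 sites (16.0%), under 3000 bp for 1049 (53.4%) and under 10000 bp for 1539 (78.3%). No such shares were computed for other positions of the genome, so these are not shown to be particular to day 8 only sites. The sites were spread over the genome. Their share of all day 8 BSs was 24.3% on chromosome 1, 26.7% on chromosome 2, 26.6% on chromosome 3, 24.8% on chromosome 4 and 24.2% on chromosome 5, with overlapping 95% intervals.

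To ask whether the day 8 only sites carried DNA elements of MADS-domain proteins and of other factors, summit windows were compared with windows of equal length 500 bp towards higher coordinates. A CArG box was found at 73 summits (3.72%) and in 18 flanking windows (0.916%), a 4.06-fold difference (exact McNemar p = 3.17e-09, BH-adjusted p = 9.00e-09 over 7 motifs). The TCP element showed the widest margin, with 212 summits (10.8%) and 49 flanks (2.49%), a 4.33-fold difference (exact McNemar p = 6.08e-27, BH-adjusted p = 4.26e-26). The G-box was 2.77-fold more frequent at summits (108 against 39 windows, adjusted exact McNemar p = 9.00e-09). The auxin element TGTCGG was 2.03-fold more frequent (75 against 37, adjusted exact McNemar p = 0.000498), the GA-rich motif 1.64-fold (77 against 47, adjusted exact McNemar p = 0.0104) and TGACG 1.42-fold (214 against 151, adjusted exact McNemar p = 0.00103). TGTCTC, at 135 summits and 108 flanks, did not pass the test (1.25-fold, adjusted exact McNemar p = 0.0910). Of all windows of this length in the genome, 0.594% held a CArG box, 2.08% a GA-rich motif, 1.11% a G-box, 7.92% TGACG, 5.47% TGTCTC, 1.62% TGTCGG and 2.44% a TCP element. None of the 7 elements was found at 1222 day 8 only summits (62.2%), against 60.3% of earlier summits. A match is a stretch of letters and does not show that a factor was bound.

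The 73 CArG boxes took 26 different forms, and the most frequent were CCAAAAAAGG (13 sites, either strand), as in NUP155 above, and CCAAAAATGG (9 sites). CArG boxes were found in 25 of 632 sites in promoters (3.96%), 23 of 681 in intergenic sequence (3.38%), 11 of 235 in 5′ UTRs (4.68%) and 7 of 135 in introns (5.19%), with overlapping intervals. The GA-rich motif was spread less evenly. It was found at 31 of 235 5′ UTR summits (13.2%, 95% interval 9.45 to 18.1%), 21 of 632 promoter summits (3.32%, 2.18 to 5.03%) and 16 of 681 intergenic summits (2.35%, 1.45 to 3.78%). Its share in 5′ UTRs at earlier sites or over the genome was not computed. This spread is therefore not shown to be particular to day 8 only sites.

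Compared with earlier sites, day 8 only sites had fewer CArG boxes and fewer GA-rich motifs. The CArG share was 3.72% (95% interval 2.97 to 4.65%) at day 8 only sites and 6.51% (5.91 to 7.17%) at earlier sites, a difference of −2.80 points (Fisher's exact test, p = 1.98e-06, adjusted p = 1.48e-05). All such tests were two-sided, with p-values adjusted by Benjamini-Hochberg (BH) over 15 comparisons. This difference shrank to −0.65 points and was no longer called when sites of like fold enrichment were compared (Cochran-Mantel-Haenszel chi-square test over 5 strata, adjusted p = 0.479). With 1 mismatch allowed in the box and no strata, the difference was −7.77 points (adjusted Fisher's exact p = 1.63e-09). The GA-rich share was 3.92% at day 8 only sites and 5.35% at earlier sites (difference −1.43 points, Fisher's exact p = 0.0118, BH-adjusted p = 0.0354), a call that was lost under 4 of the alternatives. Among sites of like fold enrichment the GA-rich difference was −1.89 points and was called (Cochran-Mantel-Haenszel chi-square test, adjusted p = 0.0176). It was also called within 100 bp of the summit, at −3.42 points (adjusted Fisher's exact p = 4.29e-05). The TCP element was found at 10.8% (9.49 to 12.2%) of day 8 only sites and 9.03% (8.32 to 9.79%) of earlier sites, a difference that missed the threshold (1.76 points, Fisher's exact p = 0.0231, BH-adjusted p = 0.0577). It was called within 100 bp of the summit, at 2.3 points (adjusted Fisher's exact p = 0.0335). Within strata of fold enrichment it was larger, at 3.18 points, and was called (Cochran-Mantel-Haenszel chi-square test, adjusted p = 0.00136). Under all other alternatives the TCP difference was not called. It ranged there from 0.67 points with −log10 q of at least 10 at day 8 (adjusted Fisher's exact p = 0.670) to 1.72 points without the day 2 list (adjusted Fisher's exact p = 0.0652).

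**Figure D2:**
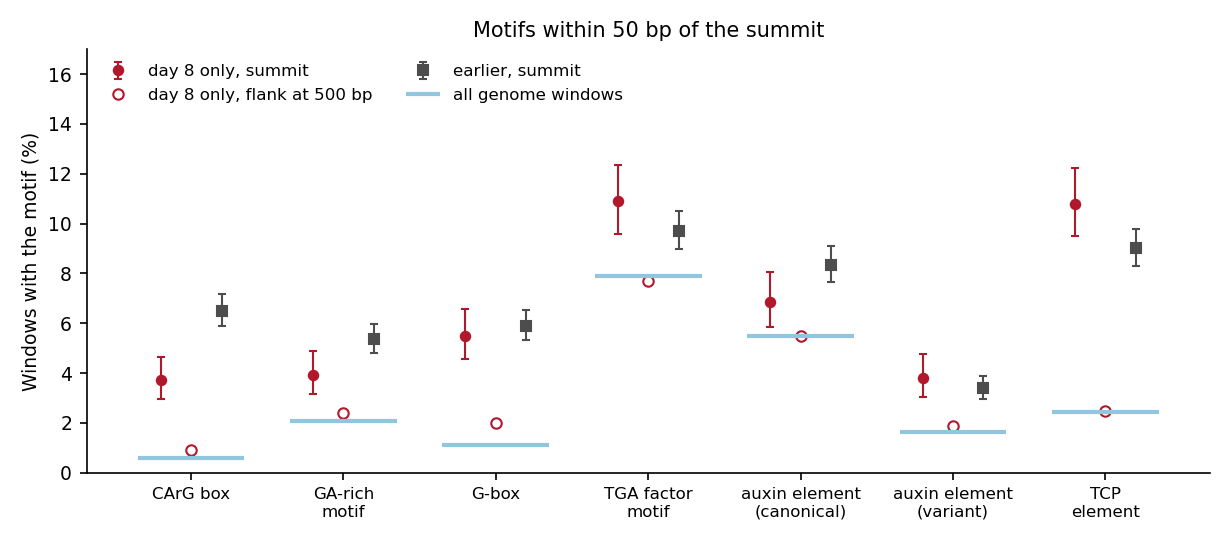
Percent of 101 bp windows with each motif at the summits of day 8 only sites (red circles, 95% Wilson intervals), in their flanks 500 bp away (open circles), at summits of earlier sites (grey squares, 95% Wilson intervals) and in all genome windows (blue lines). Canonical and variant auxin elements are those ending in CTC and CGG. The CArG share is lower at day 8 only than at earlier summits (3.72% and 6.51%), and both the CArG box and the TCP element are far above the flanks.

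The remaining elements missed the adjusted threshold of 0.05 in windows of 101 bp. The G-box was found at 5.50% of day 8 only and 5.90% of earlier summits (difference −0.40 points, Fisher's exact p = 0.540), TGACG at 10.9% and 9.71% (1.18 points, exact p = 0.140), TGTCGG at 3.82% and 3.4% (0.42 points, exact p = 0.395). TGTCTC was at 6.87% and 8.36% in the same order (−1.49 points, exact p = 0.0344, adjusted p = 0.0737), and was called when matches were sought within 100 bp of the summit (12.5% and 15.4%, −2.90 points, adjusted Fisher's exact p = 0.00378). Base composition was close in the sets, with a median GC content of 34.7% in day 8 only and 35.6% in earlier windows.

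Day 8 only summits lay more often in intergenic sequence and less often in 5′ UTRs than earlier summits. Intergenic sequence, taken as outside genes and more than 1000 bp upstream of any annotated start, and so including sequence just past gene ends, held 681 day 8 only summits (34.7%, 95% interval 32.6 to 36.8%) and 30.2% of earlier summits (29.1 to 31.4%), a difference of 4.42 points (Fisher's exact p = 0.000288, BH-adjusted p = 0.00144). This call was lost when promoters were drawn to 3000 bp (1.04 points, adjusted Fisher's exact p = 0.309), while among sites of like fold enrichment the difference was 10.001 points (Cochran-Mantel-Haenszel chi-square test, adjusted p = 6.87e-12). The 5′ UTR held 235 day 8 only summits (12%, 10.6 to 13.5%) and 15% of earlier summits (14.1 to 15.9%), a difference of −3.0 points (Fisher's exact p = 0.000884, BH-adjusted p = 0.00332), and of −5.39 points among sites of like fold enrichment. Promoters held 632 day 8 only summits (32.2%) and 33.5% of earlier summits, which missed the threshold (−1.31 points, Fisher's exact p = 0.293) and turned to 2.07 points with promoters of 3000 bp. The 3′ UTR (139 day 8 only summits, 7.07%), introns (135, 6.87%), coding exons (80, 4.07%) and noncoding exons (63, 3.21%) also missed it, with adjusted Fisher's exact p between 0.303 and 0.918. The coding exon difference of 0.67 points was called, at 1.62 points, against sites of days 4 and 8 without day 2 (adjusted Fisher's exact p = 0.00208) and, at 1.12 points, when summits within 150 bp defined a shared site (adjusted Fisher's exact p = 0.0446), and turned to −1.52 points among sites of like fold enrichment. The median distance to the start of the nearest protein-coding or microRNA gene was 1035 bp for day 8 only and 888 bp for earlier summits, and 31.2% and 36.8% lay within 500 bp of it. More than 3000 bp away lay 9.52% of day 8 only and 9.64% of earlier summits. Upstream of the start lay 61.6% of day 8 only and 60.02% of earlier summits.

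**Figure D3:**
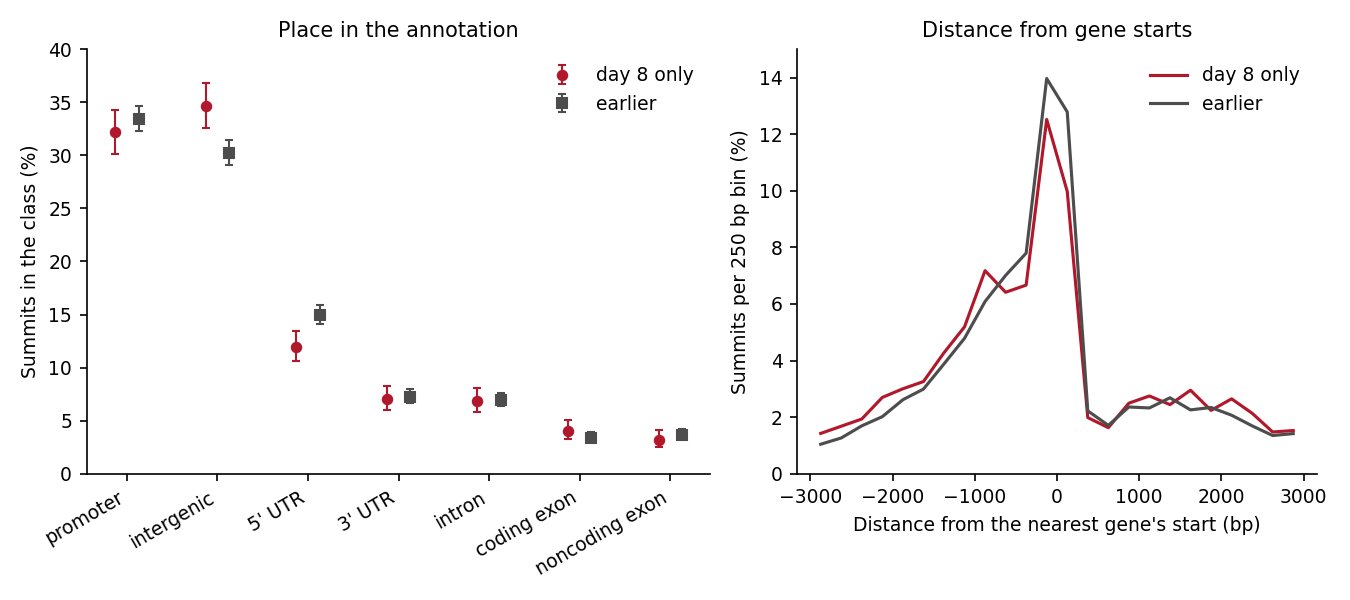
Left, percent of summits in each annotation class for day 8 only sites (red circles) and earlier sites (grey squares), with 95% Wilson intervals. Right, percent of summits per 250 bp bin by distance from the start of the nearest gene, negative values being upstream. Earlier sites are more concentrated at starts (36.8% within 500 bp, against 31.2% of day 8 only sites).

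AP1 acts with SEP3 in floral meristems and in sepals and petals, so overlap with AP1 was counted. Of the day 8 only sites, 46 (2.34%, 95% interval 1.76 to 3.11%) overlapped an AP1 BS of day 8, against 895 earlier sites (15.3%, 14.4 to 16.2%). No further AP1 overlap came from the other days, and 1919 day 8 only sites (97.7%) overlapped no AP1 BS at all. Of the 1075 AP1 BSs of day 8, 981 overlapped a SEP3 BS of day 2 or 4, so the rule that chose the sites largely fixes these shares and they are given without a test. In the lowest 5th by fold enrichment, AP1 overlap was 1.05% for day 8 only and 1.15% for earlier sites. In the following 5ths it was 2.00% and 2.56%, then 4.45% and 3.3%, then 10.8% and 10.7%. In the highest 5th 1 of 5 day 8 only sites and 42.8% of earlier sites overlapped AP1. The TCP element followed another course, with 11.9% of day 8 only and 6.35% of earlier sites in the lowest 5th, 9.65% and 6.57% in the next, 9.20% and 9.24% in the middle one, and 13.5% and 10.4% in the next. In the highest 5th it was at 0 of 5 day 8 only sites and 10.2% of earlier sites.

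**Figure D4:**
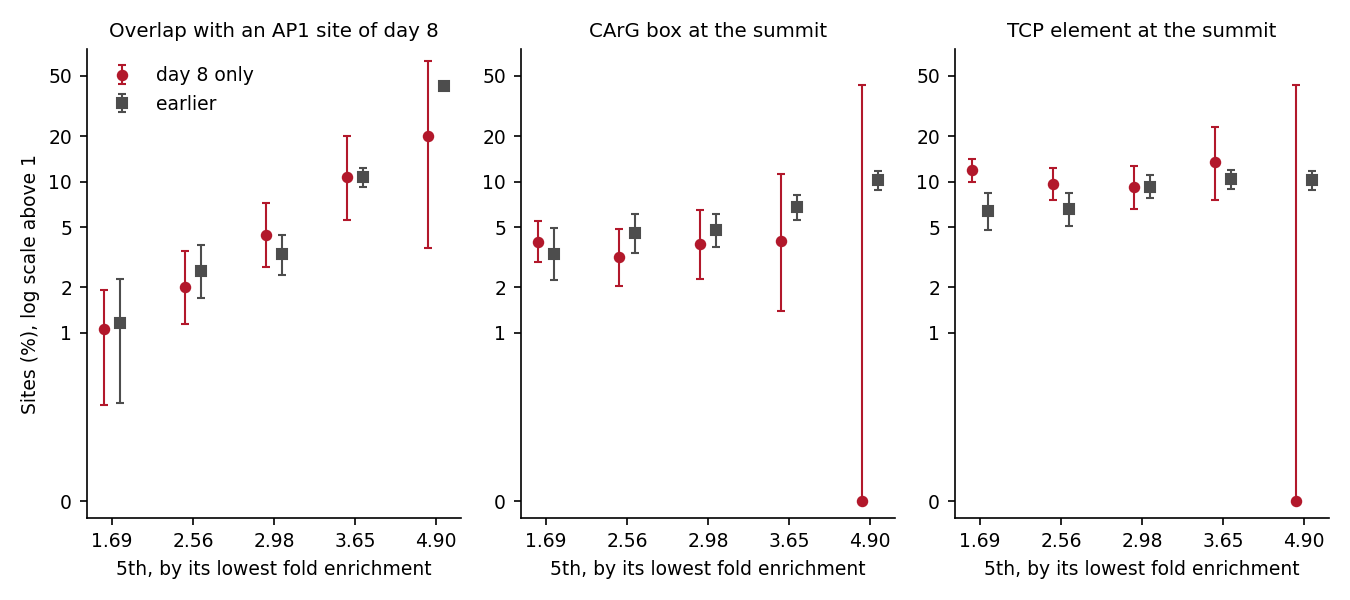
Percent of sites that overlap an AP1 BS of day 8 (left), hold a CArG box (middle) or hold a TCP element (right) in 5ths of day 8 fold enrichment, for day 8 only sites (red circles) and earlier sites (grey squares) with 95% Wilson intervals; the vertical axis is linear below 1% and logarithmic above. AP1 overlap rises with fold enrichment in both sets, from 1.05% and 1.15% in the lowest 5th, and the highest 5th holds only 5 day 8 only sites.

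Day 8 only SEP3 sites met 51 of the 1075 AP1 BSs of day 8, and 48 of these were among the 426 AP1 BSs found at day 8 only. The AP1 BSs of days 2 and 4 met 3 and 0 day 8 only SEP3 sites. The rule largely fixes these counts, the 48 of 51 included, because 489 of 498 AP1 BSs of day 2 and 954 of 956 of day 4 overlap SEP3 BSs of those days. The shared site of highest SEP3 fold enrichment lay 381 bp upstream of AT3G45260 (SEP3 5.17, AP1 2.35). Another was 640 bp from ROS4, which encodes a histone acetyltransferase that acts in active DNA demethylation (SEP3 4.56, AP1 3.31). The site 290 bp from APETALA2 (AP2), a regulator of sepal and petal identity, had a SEP3 fold enrichment of 3.68 and an AP1 fold enrichment of 4.83. Sites shared by both factors also lay 66 bp from NAC019, a stress-related NAC factor (SEP3 3.31, AP1 2.9), and 179 bp past the end of NUBBIN (NUB), a regulator of stamen and carpel shape (SEP3 2.43, AP1 2.78).

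The 25 day 8 only sites of highest fold enrichment ranged over 4.11 to 5.17. Of these, 10 lay in promoters, 9 in intergenic sequence, 2 in coding exons, 2 in noncoding exons, 1 in an intron and 1 in a 5′ UTR. Only 1 held a CArG box (SPPL2), 17 held none of the 7 elements and 3 overlapped an AP1 BS of day 8. The nearest BS of day 2 or 4 was over 10000 bp away for 9 of the 25 and under 1000 bp away for 5. For 5 of the 25, those named below with LTP, AT3G48550, AT2G17500, AT1G60060 and AT1G31130, no protein-coding or microRNA gene had the summit between 3000 bp upstream of its start and 1000 bp past its end.

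The highest site (5.17) lay 381 bp upstream of AT3G45260. The site next to it (5.06) lay 73 bp from AT1G68526, its nearest gene, and 618 bp past the end of CER6 (KCS6), the condensing enzyme that elongates very-long-chain fatty acids for wax. The site with a fold enrichment of 5.01 lay 2284 bp from LTP, a lipid transfer protein gene, in a noncoding exon of another gene. A site of 4.44 lay 104 bp upstream of IAMT1, which methylates the auxin indole-3-acetic acid, and its nearest BS of day 2 or 4 was 22071 bp away. A site of 4.37 lay 3207 bp upstream of AT2G17500 (PILS5), an auxin carrier of the endoplasmic reticulum, and the site of 4.13 near BEH2 is printed above. A site of 4.27 lay 1118 bp upstream of HSF A4A, a heat shock factor, and 1366 bp upstream of BEH3, another homologue of BES1.

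DOF6, a DOF zinc finger factor known from seed germination, had a site of 4.97 at 753 bp upstream. WRI1, an activator of seed oil synthesis, had a site of 4.35 inside its coding sequence. GPRI1 (GLK1), which promotes chloroplast development, had one of 4.34 at 1270 bp upstream, and SIP2, a raffinose-specific alpha-galactosidase, one of 4.11 at 1584 bp upstream. TBL15, of a family that acetylates wall polysaccharides, had a site of 4.28 at 390 bp upstream, 28775 bp from any BS of day 2 or 4. Sites of 4.93 at 96 bp upstream of AT1G51090, 4.70 near AT3G48550, 4.67 near AT1G72600, 4.32 near AT2G34810, 4.27 near AT1G60060, 4.25 near each of AT2G45910, AT1G31130 and AT4G19430, 4.18 in AT5G36230, 4.16 near AT3G11590 and 4.12 in AT2G29654 made up the rest.

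A gene was taken as a potential target when a summit lay between 3000 bp upstream of its start and 1000 bp downstream of its end, the window the study used. By this measure 3106 of 37899 annotated nuclear genes (8.2%) had a day 8 only site, and 1751 of these (56.4% of the 3106, 4.62% of all genes) had no SEP3 BS of day 2 or 4 in the window. Among protein-coding genes, 2563 (9.34%) had a day 8 only site, 1435 (5.23%) had one and no SEP3 BS of day 2 or 4, and 8055 (29.4%) had any SEP3 BS of day 8. Of those 8055 genes, 31.8% had a day 8 only site. The lists that follow were chosen with earlier results of these data known and contain many regulators that SEP3 binds, so the counts are given without a test and are to be read against 9.34% of all protein-coding genes and 31.8% of bound ones, meaning those with any SEP3 BS of day 8. Genes with a day 8 only site and no SEP3 BS of day 2 or 4 are to be read against 5.23% of all protein-coding genes. They are also to be read against 56.0% of protein-coding genes with a day 8 only site. They made up 20.9% of cuticle, 16.1% of gibberellin, 10.9% of cell wall loosening and 9.64% of auxin genes. In the other lists they made up 0% to 7.41%.

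**Figure D5:**
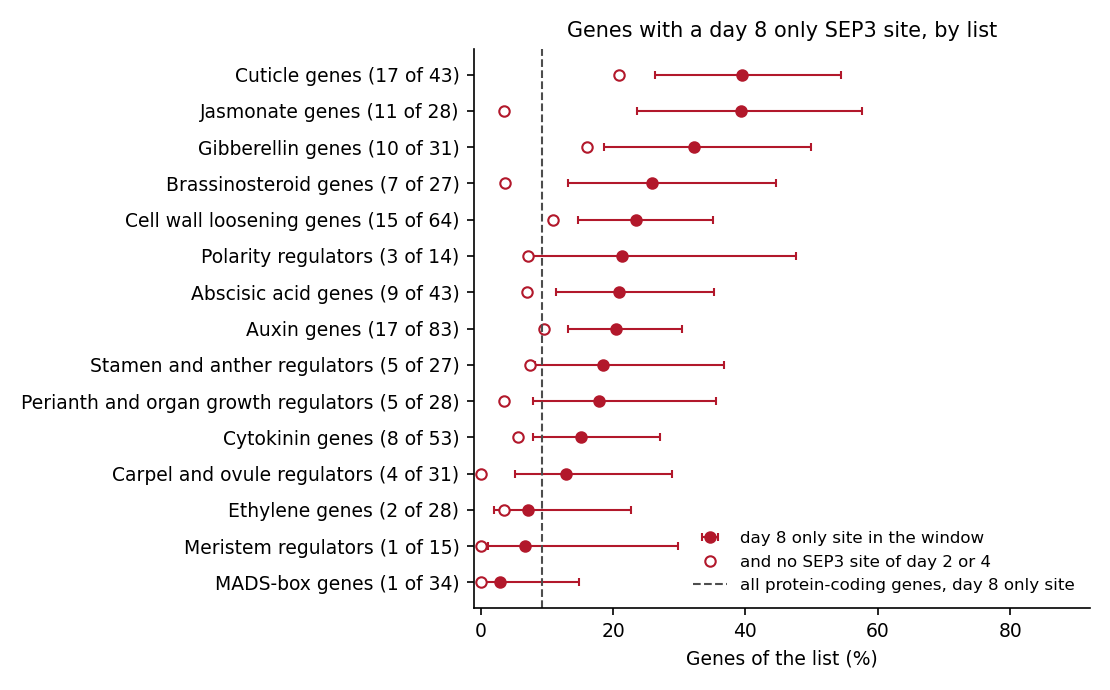
Percent of the genes of each list with a day 8 only site in the window (filled, 95% Wilson intervals), and percent that also had no SEP3 BS of day 2 or 4 (open). The dashed line is the share of all protein-coding genes with a day 8 only site, 9.34%. Cuticle genes (17 of 43) and jasmonate genes (11 of 28) have the highest shares, and MADS-box genes (1 of 34) the lowest.

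Cuticle genes had a day 8 only site in 17 of 43 cases (39.5%), against 9.34% of protein-coding genes. Of the 17, 9 had no SEP3 BS of day 2 or 4, against 56.0% of all protein-coding genes with a day 8 only site. Any SEP3 BS of day 8 was present at 29 of the 43, so that 58.6% of the bound cuticle genes had a day 8 only site, against 31.8% of all bound protein-coding genes. The cuticle is the layer of cutin and wax on the epidermis of floral organs. Among its regulators was MYB16, a MIXTA-like factor that shapes petal epidermal cells. MYB16 had a site of 3.65 at 1623 bp upstream, in a noncoding exon of another gene, and one of 2.40 at 645 bp upstream. Its relative MYB106 had sites of 2.39 and 2.31 at 1548 and 854 bp upstream. SHN3, of the SHINE family of cuticle activators, had 3 sites, of 2.86 at 1453 bp upstream, 2.51 at its start and 2.57 at 115 bp past its end. SHN2 had one of 2.81 at 213 bp upstream, in a noncoding exon of another gene. None of these 4 regulators had a SEP3 BS of day 2 or 4 in the window.

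Among enzymes and carriers of the cuticle, some had day 8 only sites alone and others had them beside earlier BSs. GPAT6, which makes cutin precursors and forms the nanoridges of petals, had sites of 2.80 in an intron and 2.70 at 129 bp upstream, with no earlier BS. ABCG32, a carrier of cutin precursors, had sites of 2.29 at 907 bp upstream and 2.21 at 82 bp into the gene. CER10, an enoyl-CoA reductase, had one of 2.36 in its 5′ UTR, and CER7, an exosome subunit, one of 3.29 at 383 bp upstream. KCS12, a fatty acid condensing enzyme, had a site of 2.99 at 632 bp past its end, in the promoter of another gene. It had another of 2.59 at 810 bp upstream. These genes had no earlier BS. By contrast, CER6 had 3 BSs at day 4 (up to 5.13), CER1, which acts in alkane synthesis, 1 BS at day 4 (4.13), and KCS13 1 BS at each of days 2 and 4 (7.75 at day 4). Fold enrichments of day 4 and day 8 come from separately called lists and are not on the same scale.

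Gibberellin genes had a day 8 only site in 10 of 31 cases (32.3%), and 5 of the 10 had no SEP3 BS of day 2 or 4. Of the 21 bound gibberellin genes 47.6% had such a site, against 31.8% of all bound protein-coding genes. Those 5 encode enzymes of synthesis, and 4 of them act in early steps. GA1, which starts the pathway as copalyl diphosphate synthase, had a site of 3.13 in an intron. GA3, the ent-kaurene oxidase, had one of 3.25 with a CArG box 163 bp into its 5′ UTR. The 2 ent-kaurenoic acid oxidases KAO1 and KAO2 had sites of 2.94 at 274 bp past the end and 2.56 in an intron, and GA20OX1, a GA 20-oxidase, had one of 2.34 with a CArG box, a GA-rich motif and a TCP element 2207 bp upstream. The other 5 genes had earlier BSs as well. RGL1, a DELLA repressor of gibberellin response, had the highest site of the list (4.08, 105 bp upstream), GA2OX2 and GA2OX8, which inactivate gibberellins, had sites of 3.12 and 3.49, GA20OX2 one of 2.23 and SLY1, the F-box protein that removes DELLA proteins, one of 2.22.

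Jasmonate genes had a day 8 only site in 11 of 28 cases (39.3%), but only 1 of them, COI1, the F-box receptor of jasmonate, had no SEP3 BS of day 2 or 4. Of the 23 bound jasmonate genes 47.8% had such a site, against 31.8%. COI1 had its site, of 2.24 with a CArG box, 180 bp past its end in the 3′ UTR of a neighbour. The other 10 genes had earlier BSs as well. Among the enzymes of synthesis, LOX2 had sites of 4.09 at 85 bp and 2.69 at 965 bp upstream, AOS one of 2.79, AOC3 one of 2.43 and LOX6 one of 2.23. Among the repressors, JAZ3 had a site of 3.61 at 1191 bp upstream, JAZ6 sites of 3.26 and 2.78, JAZ2 one of 3.15 and JAZ5 one of 2.12. JAR1, which conjugates jasmonate to isoleucine, had sites of 2.48 and 2.46, and MYC3, a bHLH activator of the response, one of 2.23 in its 5′ UTR.

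Brassinosteroid genes had a day 8 only site in 7 of 27 cases (25.9%), and 43.75% of its 16 bound genes did, against 31.8%. BES1, a principal transcription factor of the response, was the 1 gene without an earlier BS and had sites of 2.72 and 2.53 at 80 bp into the gene and 1329 bp upstream. Its homologues BEH3 (4.27), BEH2 (4.13), BEH4 (2.18) and BZR1 (2.12) each had a site in addition to BSs of day 4, as did CPD and ROT3, which are cytochrome P450 enzymes of synthesis (3.07 and 2.22).

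Auxin genes had a day 8 only site in 17 of 83 cases (20.5%), against 9.34% of protein-coding genes, and 8 of them had no SEP3 BS of day 2 or 4. Of the 51 bound auxin genes 33.3% had such a site, close to the 31.8% of all bound protein-coding genes. The 8 comprised the auxin synthesis genes YUC6 (sites of 3.35 and 2.95) and YUC3 (2.52), and 6 Aux/IAA repressors, IAA28 (3.25), IAA7 (2.68), IAA6 (2.43), IAA12 (2.37), IAA1 (2.23 and 2.21) and IAA29 (2.12). The IAA28 site lies 840 bp past the end of that gene and is the same one as that in the 5′ UTR of its neighbour GA3. The IAA6 site lies 451 bp past the gene's end, and the IAA29 site lies 2636 bp upstream in a noncoding exon of another gene. Among genes with earlier BSs, ARF6, an auxin response factor needed for stamen and carpel maturation, had a site of 3.75 at 824 bp past its end, TAR2, of auxin synthesis, one of 3.18, IAA30 one of 3.0 and PIN4, an auxin exporter, one of 2.10.

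Abscisic acid, cytokinin and ethylene genes had day 8 only sites in 9 of 43 (20.9%), 8 of 53 (15.1%) and 2 of 28 cases (7.14%), against 9.34% of protein-coding genes. Among bound genes of these lists the shares were 32.1%, 29.6% and 13.3%, close to or below the 31.8% of all bound protein-coding genes. Genes without an earlier BS were the abscisic acid hydroxylase CYP707A2 (2.76 and 2.48), the phosphatase HAB1 (2.33) and the receptor PYL7 (2.10), the cytokinin synthesis genes IPT7 (3.21) and IPT3 (2.62 and 2.57) and the cytokinin oxidase CKX3 (2.29), and the ethylene receptor ETR1 (3.26). The ETR1 site lies 1651 bp upstream of that gene, in the 5′ UTR of a neighbouring gene, and overlapped AP1 BSs of days 2 and 8. The IPT7 site lies 604 bp past the end of IPT7, in a noncoding exon of another gene.

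Cell wall loosening genes, the expansins and xyloglucan endotransglucosylases, had a day 8 only site in 15 of 64 cases (23.4%), and 7 of them had no SEP3 BS of day 2 or 4. These were EXPA19 (2.79), XTH16 (2.76), EXPA1 (2.34), XTH11 (2.31), EXPA2 (2.29), EXPA7 (2.23) and XTH13 (2.86). The XTH16, EXPA2 and EXPA7 sites lay 165, 548 and 832 bp past the gene ends. Those of EXPA2 and EXPA7 fell in a 5′ UTR and a coding exon of other genes. The XTH11 site lay 870 bp upstream, in a noncoding exon of another gene. The XTH13 site also falls in the windows of its neighbours XTH25 and XTH22, which had BSs of day 2 and 4, so that 1 site accounts for 3 genes of this list. Any SEP3 BS of day 8 was present at 25 of the 64 genes, and 15 of these 25 had a day 8 only site, against 31.8% of all bound protein-coding genes.

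Among regulators of floral organs, stamen and anther regulators had one in 5 of 27 cases (18.5%), and 2 of these had no SEP3 BS of day 2 or 4. Of the 16 bound genes of this list 31.25% had such a site, close to the 31.8% of all bound protein-coding genes. MYB26, which is needed for the wall thickening that opens the anther, had 3 sites, of 3.27 at 2241 bp upstream, 2.44 at 362 bp upstream and 2.96 in its 3′ UTR. SPL (SPOROCYTELESS), which starts pollen mother cell formation, had 2 sites, of 2.51 at 995 bp upstream and 2.29 in its 3′ UTR. Neither gene had any other SEP3 BS of day 8. RPK2 (2.62) and TGA9 (2.32), which act in anther development, had day 8 only sites beside earlier BSs.

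In the other developmental lists, 4 of 31 carpel and ovule regulators (12.9%), 5 of 28 perianth and growth regulators (17.9%), 3 of 14 polarity regulators (21.4%) and 1 of 15 meristem regulators (6.67%) had a day 8 only site. Among their bound genes the shares were 18.2%, 20.8%, 23.1% and 9.09%, all below 31.8%. NUB (2.43) and ATHB-15 (2.39), a class III HD-ZIP factor, were the 2 without a SEP3 BS summit of day 2 or 4 in the window. Another day 8 BS in the NUB window (2.59) overlapped an earlier BS whose summit lay outside that window. With earlier BSs, NGA1 and NGA3, regulators of style development, had sites of 3.64 and 2.81, FIL, a YABBY factor of organ polarity, one of 3.42, LSH3, a boundary gene, one of 2.93, JAG, which promotes organ growth, one of 2.57 and ETT, an auxin response factor of the gynoecium, one of 2.14 with a CArG box. MADS-box genes of the list, which is not the whole family, stood at the low end, with 1 of 34 (2.94%), although 27 of the 34 had a SEP3 BS of day 8. A MADS-box gene outside the list, AGL31, had a site of 2.13 at 34 bp that overlapped an AP1 BS of day 8 (2.96) and was noted after its value was seen. The 1 case in the list was PISTILLATA (PI), the petal and stamen identity gene, with a site of 3.48 at 1585 bp upstream that lies in a coding exon of its neighbour BCB, overlaps an AP1 BS of day 8 and adds to 4 SEP3 BSs of day 4.

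Some genes collected several day 8 only sites. Of the 2563 protein-coding genes with a day 8 only site, 362 had 2 or more and 46 had 3 or more. The largest number was 4, at AT2G15880, NRT1.7 and AT1G22910. A site can fall in the windows of several neighbouring genes, and these counts were not tested. AT2G15880 (highest site 3.76) and AT1G22910 (3.07) had no SEP3 BS of day 2 or 4. NRT1.7, a transporter that moves nitrate out of older leaves (highest site 3.52), had 1 BS of day 4. Genes with 3 sites included TRM13 (4.25) and ASN1, an asparagine synthetase (3.87), both without earlier BSs, and CYCD1;1, a D-type cyclin (3.73), which had 3 BSs of day 2 and 2 of day 4.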

How the data were processed

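ChIP-seq BSs of SEP3 and AP1 at days 2, 4 and 8 were analysed as 6 deposited lists. The methods and labels of the series state that the authors called bases with CASAVA 1.7 or 1.8, mapped reads to TAIR10 with Bowtie 0.12.7, combined the replicates, called peaks with MACS against pre-immune serum, and listed genes near each peak. The fold enrichment is a linear ratio deposited by the authors, and significance was deposited by the authors as −log10 q values. The smallest −log10 q of the SEP3 lists was 3.02, 2.99 and 3.18 at days 2, 4 and 8. Reads, depth and mock libraries were not analysed here, and the part of depth in the calls was not tested. Blank lines at the end of the AP1 lists of days 4 (230) and 8 (111) were skipped.

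Day 8 only sites were SEP3 BSs of day 8 that overlapped no SEP3 BS of day 2 or 4 by 1 bp. Sequence and annotation were RefSeq TAIR10.1, whose nuclear coordinates are those of TAIR10; no peak passed a chromosome end, and 99.9% of the authors' day 8 pairs of a peak and an annotated gene fell inside the window of 3000 bp upstream to 1000 bp downstream. A summit in several features was counted once, with coding exons first, then UTRs (5′ before 3′), noncoding exons, introns, promoters of 1000 bp, and intergenic sequence for the rest. Shares were compared with two-sided Fisher's exact tests, BH-adjusted over 15 comparisons (7 motifs, 7 classes and AP1 of day 8), and summits with flanks by exact McNemar tests over 7 motifs. AP1 overlap is given without a test because the rule largely fixes it. The p of day 8 had been counted among the 15, and over the 14 others no call changed (adjusted Fisher's exact p = 0.0413 for the GA-rich motif). For the flank test 5 motifs were added to the 2 planned. Functions were tested on simulated data (Python 3.11.15, SciPy 1.17.1, statsmodels 0.14.6).

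The members, gene lists and motifs were chosen with earlier results of these data known. Named genes were those nearest to the 25 sites of highest fold enrichment, with CER6 and BEH3 from the lists where they share a site, those of the 15 lists with a day 8 only site, led by genes without a SEP3 BS of day 2 or 4, those beside printed sequences, and those with most sites. Genes near the rule's limit and those shared with AP1 were named after their values were seen. Of 562 symbols in the lists, 6 matched no single locus and 7 named a locus already in the same list, which leaves 549 entries; 3 symbols that RefSeq gives to unrelated proteins (BAM1, WIP2 and ACO3), with BAM2, had been removed after the files were read. Columns of genes listed by the authors were used only as an alternative.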

Additional observations from a re-analysis of the deposited data

How the results depend on the processing

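The number of day 8 only sites was 2391 with a reciprocal overlap of 50% and 2217 with summits within 150 bp. It was 1937 with earlier BSs widened by 100 bp and 1971 without the day 2 list. With −log10 q of at least 10 in the 3 lists it was 1937 (30.6% of the day 8 BSs kept). That is another set of sites, since it takes in earlier sites whose BS of day 2 or 4 fell under that limit. The number was 1083 (17.1% of the day 8 BSs kept) when that limit was put on day 8 alone. It was 948 in the lowest 5th by fold enrichment and 5 in the highest. These last 3 numbers are lower by construction. No paired analysis was possible because each list pools its replicates, and for the same reason no replicate could be left out. The GA-rich difference was −1.29 points against sites of days 4 and 8, −1.67 at −log10 q of at least 10, −1.35 with widened BSs and −0.80 within 25 bp of the summit, none past the threshold. Within strata of fold enrichment the CArG difference was −0.65 and the AP1 difference −0.041 points. With promoters of 3000 bp the promoter difference turned to 2.07 points. Differences that were not called and turned were TGTCGG −0.033, coding exon −1.52 and intron 0.299 in strata of fold enrichment, TGACG −1.20 and coding exon −0.794 at −log10 q of at least 10, 3′ UTR 0.315 and intron 0.123 with summits within 150 bp, G-box 0.066 within 25 bp and TGACG −0.572 within 100 bp. Genes with a day 8 only site numbered 1453 (1089 without an earlier BS) with a window of 1000 bp upstream to the gene end, and 1774 (1028) at −log10 q of at least 10, since fewer sites or shorter windows enter. With the shorter window 4.47% of protein-coding genes and 15 of 43 cuticle genes (34.9%), 6 of 28 jasmonate genes (21.4%), 5 of 31 gibberellin genes (16.1%), 5 of 64 cell wall genes (7.81%), 6 of 83 auxin genes (7.23%), 3 of 27 brassinosteroid genes (11.1%), 2 of 31 carpel (6.45%), 2 of 28 perianth (7.14%), 1 of 14 polarity (7.14%), 0 of 28 ethylene and 0 of 34 MADS-box genes had a site. At −log10 q of at least 10, with 5.25% of protein-coding genes, the counts were 11 cuticle, 10 auxin, 7 gibberellin, 7 cell wall, 5 jasmonate, 5 abscisic acid, 4 brassinosteroid, 4 cytokinin, 3 stamen, 1 perianth and 1 polarity gene. The cause of the other shifts was not tested. The excess over flanks was called with either flank for all motifs but TGTCTC, which was called with neither.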

Other observations

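MicroRNA genes are outside the protein-coding lists above. Of 326 annotated microRNA genes, 23 had a day 8 only SEP3 site in the window of 3000 bp upstream to 1000 bp downstream (7.06%, against 8.2% of all annotated nuclear genes), and 14 of the 23 had no SEP3 BS of day 2 or 4. Those 14 were 4.29% of microRNA genes, against 4.62% of all annotated nuclear genes. The 14 were led by MIR396b (3.56), whose mature form targets growth-regulating factors, MIR4240 (3.33), MIR826a (3.31) and MIR863 (3.16). They also held MIR398b (2.77), MIR397a (2.72) and MIR408 (2.64), which act on copper proteins, MIR858a (2.74), which targets MYB factors, and MIR319b (1.71), of the family that targets TCP genes. The 9 others had a BS of day 4 as well, among them MIR157c (3.06), MIR157d (2.97) and MIR156d (2.57), which target SQUAMOSA promoter-binding-like factors, MIR164b (2.58), which targets CUC genes, MIR167a (2.34), which targets ARF6 and ARF8, and MIR172a (2.17), which targets AP2. A site in such a window may belong to a neighbouring gene, and none of these counts was tested.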
